A study of Mus musculus with 54 samples.

Results

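The genes described here are 7 markers of glutamatergic neurons, the excitatory neurons that fill the cortex, hippocampus and thalamus of the forebrain. They are *Slc17a7*, *Slc17a6*, *Neurod6*, *Neurod2*, *Neurod1*, *Tbr1* and *Fezf2*, and they are a list of names set with earlier results of these data known, with no threshold on a measured value. Of the 7, 6 had a row among the 30031 genes of the count table. *Neurod1* was listed only in the second, normalized table of 31077 genes and is described from the reads recovered there. The tissue was the suprachiasmatic nucleus (SCN), the hypothalamic nucleus that holds the master circadian clock, cut from Nissl-stained mouse brain sections by laser capture. Male C3H/HeH mice aged 10 to 12 weeks, with no engineered allele and no treatment named in the labels, were kept under 12 hr light and 12 hr dark. They were taken at zeitgeber time (ZT, hours after lights on) 2, 6, 10, 14, 18 or 22. Each timepoint had 3 biological replicates (A, B and C), each the pooled tissue of 5 mice, and each replicate was sequenced on 3 lanes, which makes 54 lane samples and 18 libraries.

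Neurons that release glutamate load it into synaptic vesicles with a vesicular glutamate transporter. *Slc17a7* encodes VGLUT1, the form of most cortical and hippocampal neurons, and *Slc17a6* encodes VGLUT2, the form of most thalamic, hypothalamic and brainstem neurons. *Neurod1*, *Neurod2* and *Neurod6* encode basic helix-loop-helix transcription factors of differentiating and mature excitatory neurons, which bind E-box motifs in DNA. *Tbr1*, a T-box factor, and *Fezf2*, a zinc finger factor, specify deep-layer projection neurons of the cortex. SCN neurons themselves are almost all GABAergic and load GABA through the vesicular transporter encoded by *Slc32a1*. The comparison asked whether the 7 markers followed the time of day or stood high in single libraries. In such bulk samples, fewer cells of a type and less RNA per cell cannot be told apart.

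The count table held between 15412981 and 35820945 reads on genes per library, with a median of 25075231, as the authors deposited it. In the 18 pairs of libraries from the same timepoint, counts spread further than sampling would give (chi-square of 31.6 to 141 per gene), so none was counted as a repeat of another. Levels are in CPM (read counts scaled to a common library total) after trimmed-mean (TMM) normalization in edgeR, and every mean is given ± SD with n = 3 libraries. The SCN label was looked at with 15 genes of GABAergic and SCN neurons, all of which were detected. Detection does not measure how much other tissue a library held. *Gad1*, a GABA-synthesizing enzyme, lay between 512 and 913 CPM in the 18 libraries. The libraries lie in the study's principal component plot as 3 pairs of timepoints (ZT22 with ZT2, ZT6 with ZT10, ZT14 with ZT18), and the study names sequencing batch beside timepoint there, while holding batch effects to be small. The labels give no batch for any library, so whether the pairs are batches was not tested. The contrasts below stay inside pairs, but the tests over all timepoints and the highest and lowest means quoted often cross them.

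The 7 genes lie on 5 chromosomes of GRCm38. In GENCODE M21, *Slc17a7* is at chr7:45163949-45176142 and *Slc17a6* at chr7:51622006-51671119, both on the plus strand. *Neurod6* is at chr6:55677822-55681263, *Neurod2* at chr11:98325415-98329648 and *Neurod1* at chr2:79452521-79456751, all on the minus strand. *Tbr1* is at chr2:61802930-61814114 on the plus strand and *Fezf2* at chr14:12342094-12348189 on the minus strand. All are protein coding. *Neurod1* alone shares exon bases with other genes, 355 in all, with *Cerkl* on its own strand and with the lincRNA gene *Gm26755* on the other, so its reads are uncertain. The reads were not made with a kit that marks strand.

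The windows of 250 bases before the RefSeq start (GRCm38.p6) of 3 members are shown, 5′ to 3′, because NEUROD factors bind the E-box CAGNTG. Their means were highest at ZT14 or ZT22, as were those of *Slc17a6*, *Neurod1* and *Tbr1*, whose windows are not shown. Capitals mark each CAGNTG, searched on both strands.
Slc17a7 (chr7:45163671-45163920, plus strand): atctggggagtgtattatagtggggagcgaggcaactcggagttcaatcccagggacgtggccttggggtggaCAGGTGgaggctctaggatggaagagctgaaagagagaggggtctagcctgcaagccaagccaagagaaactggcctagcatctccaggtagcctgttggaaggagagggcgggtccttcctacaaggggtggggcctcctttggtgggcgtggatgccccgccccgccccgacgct
Neurod6 (chr6:55681264-55681513, minus strand): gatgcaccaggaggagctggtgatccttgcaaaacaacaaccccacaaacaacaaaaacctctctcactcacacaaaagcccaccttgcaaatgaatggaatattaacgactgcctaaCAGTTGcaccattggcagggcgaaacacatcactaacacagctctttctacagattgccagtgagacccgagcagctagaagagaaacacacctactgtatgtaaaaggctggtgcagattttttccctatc
Neurod2 (chr11:98329646-98329895, minus strand): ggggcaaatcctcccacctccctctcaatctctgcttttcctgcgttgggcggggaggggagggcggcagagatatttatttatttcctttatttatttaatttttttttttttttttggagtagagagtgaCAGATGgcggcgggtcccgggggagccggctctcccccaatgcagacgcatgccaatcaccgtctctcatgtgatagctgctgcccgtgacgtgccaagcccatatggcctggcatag
A CAGNTG was found in these windows, in that of *Tbr1* and in 1 of 2 of *Slc17a6*, and in neither that of *Fezf2* nor that of *Neurod1*. It lay 177 bases before the start of *Slc17a7*, 132 before that of *Neurod6* and 118 before that of *Neurod2*. Over all 32851 mouse promoter windows of this length, 44.8% held at least 1 CAGNTG, so its presence here is a description only. The circadian E-box CACGTG, held by 6.02% of all windows, was found in none of the windows of the 7 members.

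*Slc17a7* was the member with the clearest difference inside the pairs. Its libraries read 19.3, 12.3 and 22.0 CPM at ZT2, 9.50, 7.39 and 12.2 at ZT6, and 18.1, 19.4 and 30.0 at ZT10. They read 49.5, 50.7 and 82.8 CPM at ZT14, 11.04, 18.4 and 17.1 at ZT18, and 21.5, 79.8 and 54.4 at ZT22. All ZT14 libraries were above all ZT18 libraries, whereas ZT22 replicate A lay among the ZT2 libraries. The means were 61.0 ± 18.9 CPM at ZT14 and 51.9 ± 29.2 at ZT22, and at the other timepoints they ran from 9.70 ± 2.42 at ZT6 to 22.5 ± 6.52 at ZT10. Neighbours in the order of the 6 means overlapped in every case. The 18 libraries held 15301 *Slc17a7* reads in all, at least 156 in each library.

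*Slc17a6* followed another order. Its libraries read 19.1, 49.4 and 25.8 CPM at ZT2, 11.1, 3.13 and 0.899 at ZT6, and 2.14, 4.73 and 14.1 at ZT10. They read 11.5, 19.4 and 66.9 CPM at ZT14, 121, 28.2 and 16.9 at ZT18, and 31.6, 68.0 and 66.7 at ZT22. The ZT6 and ZT10 libraries were low, all below every ZT2 library, and 1 library, ZT18 replicate A with 3770 reads, was the highest of the 18. The ZT22 mean of 55.4 ± 20.7 CPM and the ZT18 mean of 55.3 ± 56.9 CPM differed by far less than their SD. Of the variance of the 6 timepoint means (log2 CPM), 93.9% lay between the 3 pairs for *Slc17a6* and 27.3% for *Slc17a7*. The median over the 8343 genes that changed with time was 90.3%.

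*Neurod6* had the largest fold between its highest and lowest timepoint means of the 7, 54.8. It read 23.8, 15.6 and 43.7 CPM at ZT2, 1.69, 2.13 and 0.0473 at ZT6, and 9.75, 4.25 and 16.1 at ZT10. It read 22.3, 20.1 and 81.7 CPM at ZT14, 11.1, 9.12 and 23.1 at ZT18, and 22.6, 108 and 81.1 at ZT22. The ZT6 libraries were the lowest of the 18, with 1 read in ZT6 replicate C, and 3 libraries (ZT14 replicate C, ZT22 replicates B and C) stood above all others. The ZT6 mean of 1.29 ± 1.10 CPM was the only one whose libraries did not overlap those of its neighbour in the order, ZT10 with 10.0 ± 5.93.

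*Neurod2* read 1.47, 0.990 and 0.963 CPM at ZT2, 3.47, 0 and 3.27 at ZT6, and 3.49, 7.33 and 7.93 at ZT10. It read 6.14, 12.5 and 16.5 CPM at ZT14, 1.06, 5.11 and 3.78 at ZT18, and 0.906, 12.3 and 7.38 at ZT22. The ZT14 libraries were all above the ZT18 libraries, and ZT22 replicate A was lower than all 3 ZT2 libraries. The 0 in ZT6 replicate B allows a level of up to 0.142 CPM, the worth of 3 reads there (counting error only). *Neurod1*, from the normalized table, averaged 12.5 ± 3.53 CPM at ZT14, 6.55 ± 1.56 at ZT22, 4.56 ± 3.79 at ZT18 and between 1.16 ± 0.930 and 2.99 ± 1.80 at ZT6, ZT10 and ZT2. Its ZT14 libraries, at 10.9, 10.0 and 16.5 CPM, were above its 15 other libraries.

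*Tbr1* read 5.37, 3.57 and 3.85 CPM at ZT2, 1.52, 2.08 and 0.805 at ZT6, and 4.90, 5.08 and 13.5 at ZT10. It read 10.1, 7.05 and 11.7 CPM at ZT14, 1.47, 3.85 and 0.549 at ZT18, and 5.73, 11.6 and 9.39 at ZT22. It was the only member of the count table whose ZT22 libraries were all above its ZT2 libraries, and its ZT14 and ZT10 libraries were all above those of ZT18 and ZT6. *Fezf2* did not share this order. Its highest mean was 6.31 ± 2.58 CPM at ZT10 and its lowest 2.07 ± 1.58 at ZT18, and all neighbours in the order overlapped.

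**Figure D1:**
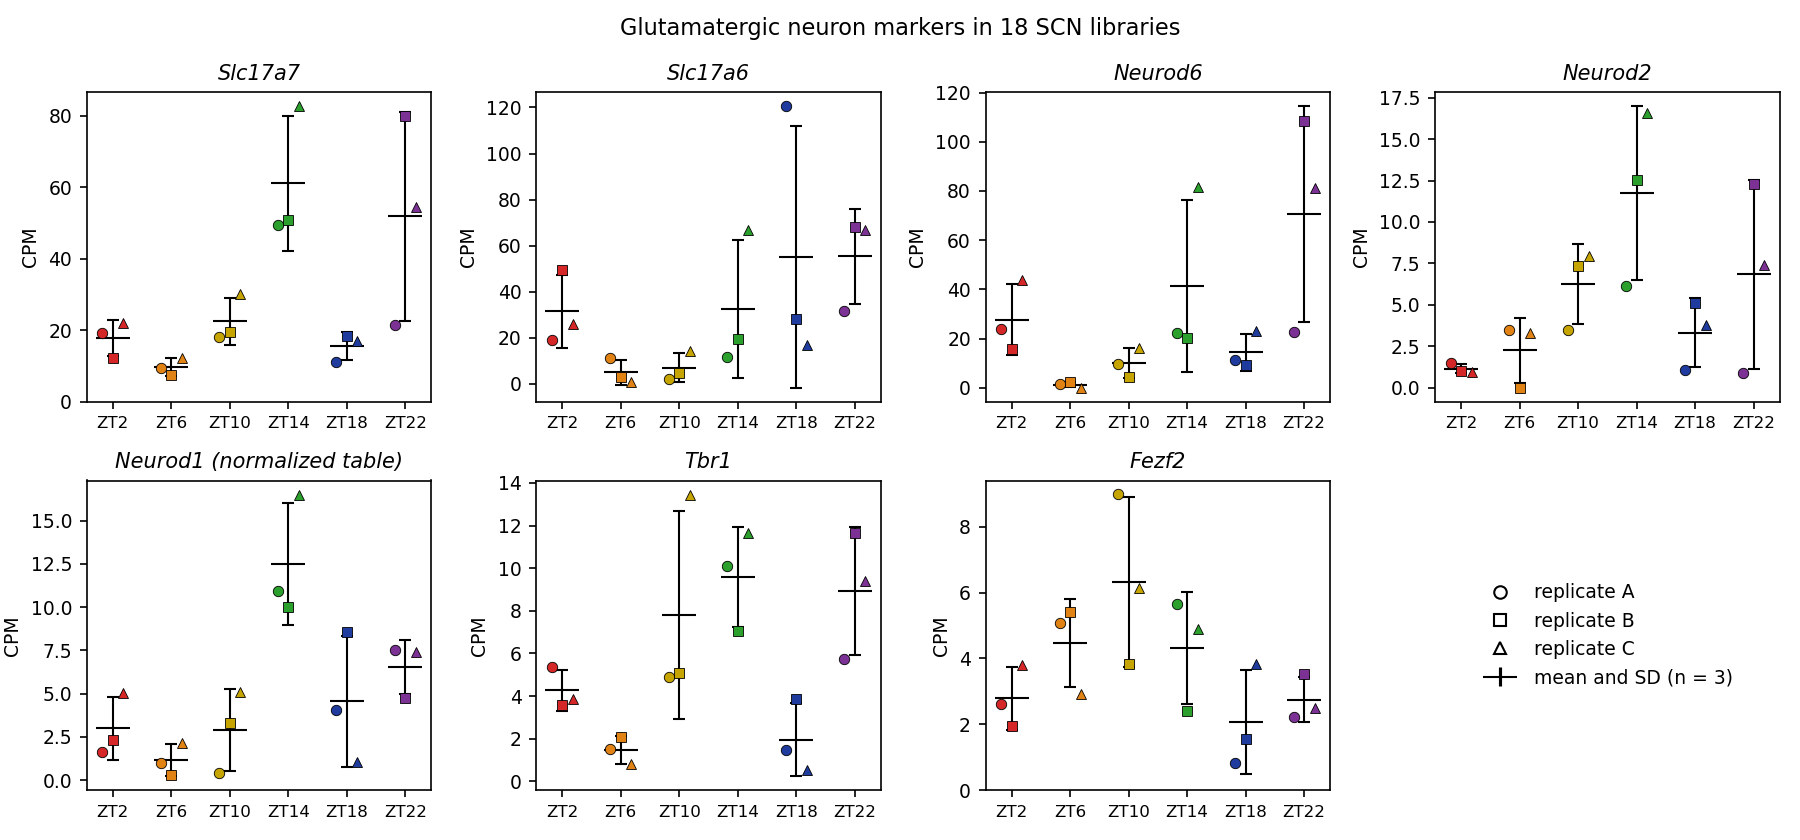
Level of each of the 7 markers (CPM, linear axes of different range) in the 3 libraries of each timepoint, with mean and SD as bars. *Slc17a7* is highest at ZT14 (61.0 ± 18.9 CPM) and ZT22 (51.9 ± 29.2 CPM), while 1 ZT18 library carries the *Slc17a6* mean there.

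Per kilobase of exon, which allows levels to be set side by side between genes, *Neurod6* had the highest mean level over the 18 libraries, 12.8 CPM per kb. *Slc17a6* followed with 5.76 and *Slc17a7* with 5.52 CPM per kb, and *Neurod1*, *Neurod2*, *Fezf2* and *Tbr1* lay between 1.03 and 1.87. The order of the transporters rests on ZT18 replicate A, without which the mean was 4.79 CPM per kb for *Slc17a6* and 5.72 for *Slc17a7*. *Neurod6* was the highest of the 7 in 10 of 18 libraries, *Slc17a6* in 4, *Slc17a7* in 3 and *Fezf2* in 1.

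Of the 6 members in the count table, 4 changed with time in edgeR's quasi-likelihood test over the 6 timepoints (adjusted p under 0.05 over 18941 genes), where 44.0% of all tested genes did. They were *Slc17a7* (adjusted p = 0.000107), *Neurod6* (0.000696), *Tbr1* (0.00522) and *Slc17a6* (0.0172). *Neurod2* (0.101) and *Fezf2* (0.187) did not pass. With DESeq2, which called 54.0% of 18495 genes, *Neurod2* passed as well (adjusted p = 0.0298), and leaving out 1 library let *Neurod2* pass (0.0260 without ZT6 replicate B) or *Fezf2* (0.0343 without ZT18 replicate C). *Neurod1* passed in the reads of the normalized table (0.0321), where 45.0% of 20822 genes did, but in 7 of 18 fits that left out a library it did not (adjusted p up to 0.103, without ZT14 replicate C). The other 6 of these fits were those without ZT2 replicate B, ZT6 replicates A and B, ZT14 replicates A and B, and ZT22 replicate C, with adjusted p from 0.0501.

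Only *Slc17a6* was called cycling, which needed a JTK_CYCLE p under 0.05 for a sinusoid of 24 hr as well (p = 0.00942, exact null distribution with a factor of 6 for the lags, best phase at ZT22). Over all tested genes 29.9% were called cycling. Both tests cross the pairs of timepoints, between which 93.9% of the variance of the *Slc17a6* means lay. The JTK_CYCLE p was 0.481 for *Slc17a7*, 0.144 for *Neurod6* and 1 for *Tbr1*. *Neurod2* (p = 0.0319) and *Fezf2* (p = 0.0239) met the sinusoid by the same exact test but did not pass the time test. The count rose to 2 of 6 without ZT6 replicate B (*Neurod2*), without ZT14 replicate C or ZT18 replicate B (*Neurod6*), and without ZT18 replicate C (*Fezf2*).

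Inside the pair of ZT14 and ZT18, 5 of the 6 members had a higher fitted level at ZT14, and *Slc17a7* alone passed the test. Its difference was 1.98 ± 0.40 (log2, SE), or 3.93-fold, with an edgeR adjusted p of 0.0352. Over all tested genes 0.412% were called higher at ZT14. *Tbr1* differed by 2.28 ± 0.62, *Neurod2* by 1.82 ± 1.01, *Neurod6* by 1.52 ± 0.75 and *Fezf2* by 1.07 ± 0.59, with edgeR adjusted p between 0.101 and 0.462. *Slc17a6* differed the other way, by -0.76 ± 0.85 (0.783), and by 0.53 without ZT18 replicate A. The median over the 6 members was 1.67 and that over all tested genes 0.01. With DESeq2, which called 2.75% of the 16310 genes it tested higher, *Tbr1* passed too (adjusted p = 0.00631). In 3 of 6 members all ZT14 libraries lay above all ZT18 libraries, as they did in 11.6% of tested genes.

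The *Slc17a7* call at ZT14 was lost in 7 of 18 fits that left out a library, those without any one of the 6 ZT14 and ZT18 libraries and that without ZT22 replicate C. The difference in all 18 fits stayed between 1.69 and 2.12, and the adjusted p in the 7 lay between 0.0554 and 0.134.

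At ZT22 against ZT2 no member was called by edgeR, and 0.00% of all tested genes (0 genes) were called higher at ZT22. At an unadjusted p under 0.05 there were 2 members (*Slc17a7* and *Neurod2*) and 680 genes, and DESeq2 called 34 genes in either direction and no member (0.0321% of the genes it tested were called higher). The fitted differences were 1.54 ± 0.40 for *Slc17a7*, 2.59 ± 1.05 for *Neurod2*, 1.35 ± 0.75 for *Neurod6*, 1.06 ± 0.60 for *Tbr1* and 0.82 ± 0.85 for *Slc17a6*. *Fezf2* had -0.02 ± 0.58. The median of the 6 was 1.21 against 0.01 over all tested genes. In 1 of 6 members (*Tbr1*) the ZT22 libraries were all above those of ZT2, as in 5.98% of tested genes.

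At ZT6 against ZT10 all 6 members had a lower fitted level at ZT6, and edgeR called none (0.0264% of tested genes were called lower). At an unadjusted p under 0.05 there were 3 members and 2042 genes, and DESeq2 called 246 genes, *Tbr1* among them (adjusted p = 0.0109), with 0.986% of the genes it tested called lower. *Neurod6* had -2.95 ± 0.84, *Tbr1* -2.41 ± 0.63 and *Slc17a7* -1.21 ± 0.40, and the median of the 6 was -1.34 against -0.03 over all tested genes. In 4 of 6 members all ZT10 libraries were above all ZT6 libraries, as in 6.87% of tested genes. The 2 deposited tables differ most in these timepoints, where only 36.8% to 47.1% of shared genes had identical reads, but edgeR also called no member on the reads of the normalized table.

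The study describes genes with peaks at ZT14 and ZT22, and *Slc17a7* is one it picked as such on these same libraries, so its result here is not independent evidence. The mean of ZT14 and ZT22 was set against that of ZT18 and ZT2. *Slc17a7* was 1.76 ± 0.28 higher on the log2 scale, or 3.38-fold, and passed in edgeR (adjusted p = 0.0262), where 0.127% of tested genes were called higher. The other members reached 2.21 ± 0.73 for *Neurod2*, 1.67 ± 0.43 for *Tbr1*, 1.44 ± 0.53 for *Neurod6* and 0.53 ± 0.41 for *Fezf2*, with edgeR adjusted p between 0.107 and 0.742. *Slc17a6* had 0.03 ± 0.60. *Neurod1* had 1.29 ± 0.57 in the other table (0.452). All 6 members of the count table were above 0, as were 51.3% of tested genes, and their median was 1.55 against 0.01. DESeq2 called 3 of 6, *Slc17a7*, *Tbr1* (0.00571) and *Neurod2* (0.0434), and it called 1.74% of the 15230 genes it tested higher, against 0.127% by edgeR.

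This *Slc17a7* call was lost in 10 of 18 fits that left out a library, those without any ZT2 or ZT14 library, without ZT18 replicate A or B, or without ZT22 replicate B or C. The difference in all 18 fits stayed between 1.53 and 1.94, and the adjusted p in the 10 lay between 0.0514 and 0.102. *Slc17a6* fell to -0.51 without ZT14 replicate C.

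**Figure D2:**
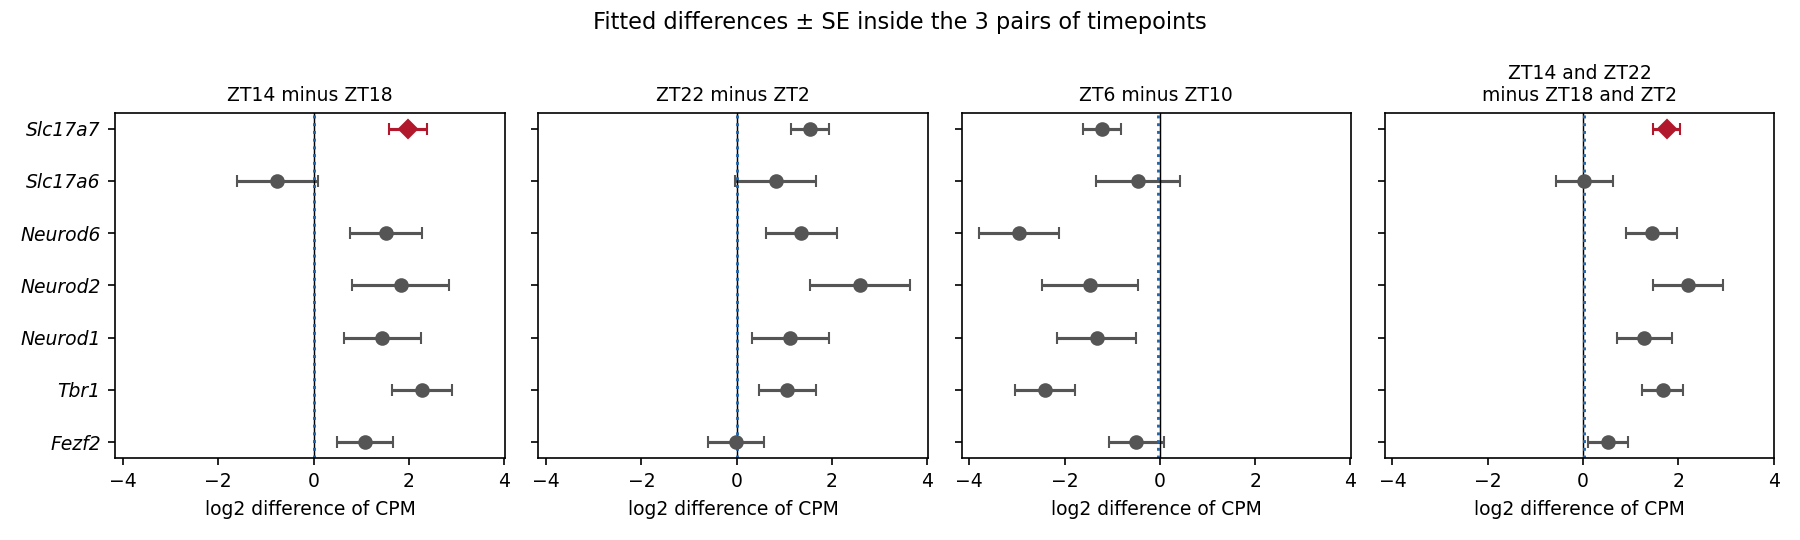
Fitted log2 differences of CPM with SE for the 7 markers in 4 contrasts, with *Neurod1* from the normalized table. Red diamonds passed the edgeR adjusted p of 0.05, grey circles did not, and the dotted line is the median of all tested genes. Only *Slc17a7* passed, at ZT14 over ZT18 (1.98 ± 0.40) and in the joint contrast (1.76 ± 0.28).

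Single libraries stood out in several members at once. The summed level of the 6 members was 264 CPM in ZT14 replicate C, 284 in ZT22 replicate B and 221 in ZT22 replicate C, and at most 146 in each of the 15 others. ZT14 replicate C was the highest library of its timepoint in 5 of 6 members, ZT10 replicate C in 5 and ZT22 replicate B in all 6. ZT22 replicate A summed to 84.5 CPM, within the range of 71.5 to 100.1 at ZT2. ZT6 had the lowest sums, between 20.1 and 32.4 CPM. The within-timepoint SD of log2 CPM was 0.54 for *Slc17a7*, 0.64 for *Fezf2*, 0.75 for *Tbr1* and between 1.27 and 1.64 for *Slc17a6*, *Neurod6* and *Neurod2*, against a median of 0.42 over 14149 genes with a mean of at least 1 CPM.

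A second list, of other telencephalic excitatory genes, was high in ZT14 replicate C and ZT22 replicates B and C too, and in the other ZT14 libraries. Its 16 genes summed to between 2076 and 2677 CPM at ZT14, 1994 and 2048 CPM in ZT22 replicates B and C, and at most 1399 CPM in each of the 13 other libraries. Of the 16, 8 changed with time, where 44.0% of all tested genes did. In the joint contrast of ZT14 and ZT22 with ZT18 and ZT2, 15 were above 0, and the median was 1.04. Of all tested genes 51.3% were above 0 there. None passed in that contrast, and *Mef2c*, a neuronal transcription factor, passed at ZT14 against ZT18 (edgeR adjusted p = 0.0459). *Camk2a*, a synaptic kinase of excitatory neurons, averaged 1033 ± 262 CPM at ZT14 and 139 ± 39.5 at ZT6 (time test, edgeR adjusted p = 7.32e-06). The study names *Camk2a* among its genes with peaks at ZT14 and ZT22 and places it in light signalling of the SCN. Its result on these same libraries is therefore not independent evidence. *Nrgn*, a postsynaptic calmodulin-binding protein, averaged 186 ± 40.2 CPM at ZT14 and 25.9 ± 15.4 at ZT2 (0.000923). *Slc30a3*, the zinc transporter of glutamatergic vesicles, averaged 48.3 ± 26.2 CPM at ZT14 and 6.96 ± 4.71 at ZT6 (0.00160).

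*Emx1*, a transcription factor of the dorsal telencephalon on that list, lay between 0 and 6.18 CPM and did not pass the time test (edgeR adjusted p = 0.262).

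**Figure D3:**
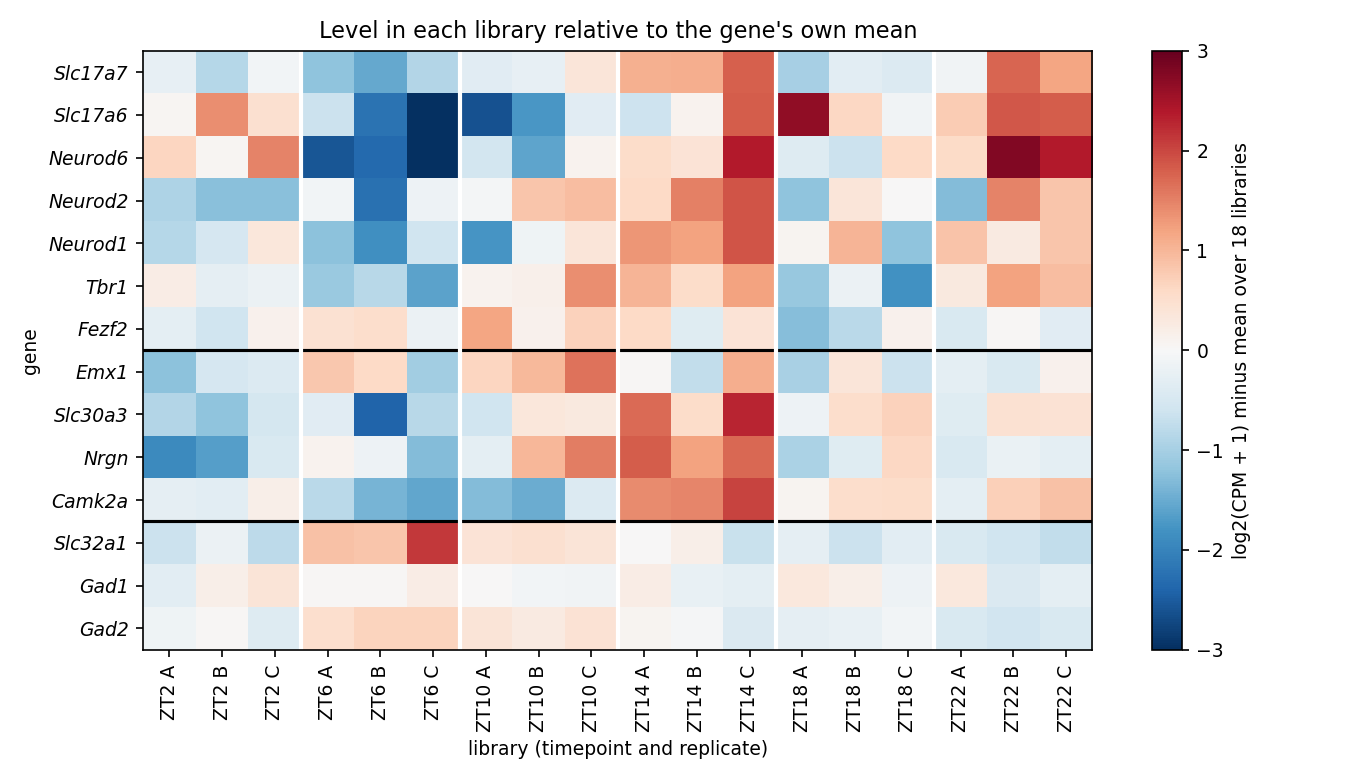
Level of the 7 markers (top), 4 other telencephalic genes (middle) and 3 genes of GABA neurons (bottom) in each library, as log2(CPM + 1) minus the gene's mean over 18 libraries. The colour scale stops at 3 in either direction. ZT14 replicate C and ZT22 replicates B and C are high in most of the 7 markers, and the ZT6 libraries are the lowest in *Neurod6*.

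The lists of telencephalic inhibitory, thalamic and neighbouring hypothalamic neurons had their highest sums outside ZT14 replicate C and ZT22 replicates B and C. Those libraries had the highest sums of the members. The list of other telencephalic excitatory genes had its highest sum in ZT14 replicate C (2677 CPM). That of neurons in general had its highest in ZT22 replicate B (8977 CPM). A list of telencephalic inhibitory neurons, 9 tested of 10, summed to 739 and 1007 CPM in ZT14 replicates A and B. It summed to 203 CPM in ZT14 replicate C, the ZT14 library with the highest sum of the members. Of the 9, 4 changed with time, where 44.0% of all tested genes did. *Ppp1r1b*, which encodes the striatal phosphoprotein DARPP-32, read 230, 337 and 20.8 CPM in ZT14 replicates A, B and C (time test, edgeR adjusted p = 0.00540). A list of 8 genes of thalamus and habenula summed to 212 CPM in ZT18 replicate A, the library with the highest *Slc17a6*, and to 132 CPM in ZT14 replicate C, against 33.8 to 95.6 in the others. *Tcf7l2*, a factor of thalamic neurons, read 158 CPM in ZT18 replicate A and averaged 91.3 ± 58.0 at ZT18 and 23.6 ± 1.71 at ZT2 (0.00308). It was 1 of 2 genes of the 8 that changed with time, and the other, *Gbx2*, had 3 reads or fewer in 12 libraries and is named after its values were seen. A list of neighbouring hypothalamic neurons, 9 tested of 12, summed to between 17.9 and 88.1 CPM, with 4 genes changed. The part of these neighbouring tissues in the levels of the 7 markers was not tested.

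**Figure D4:**
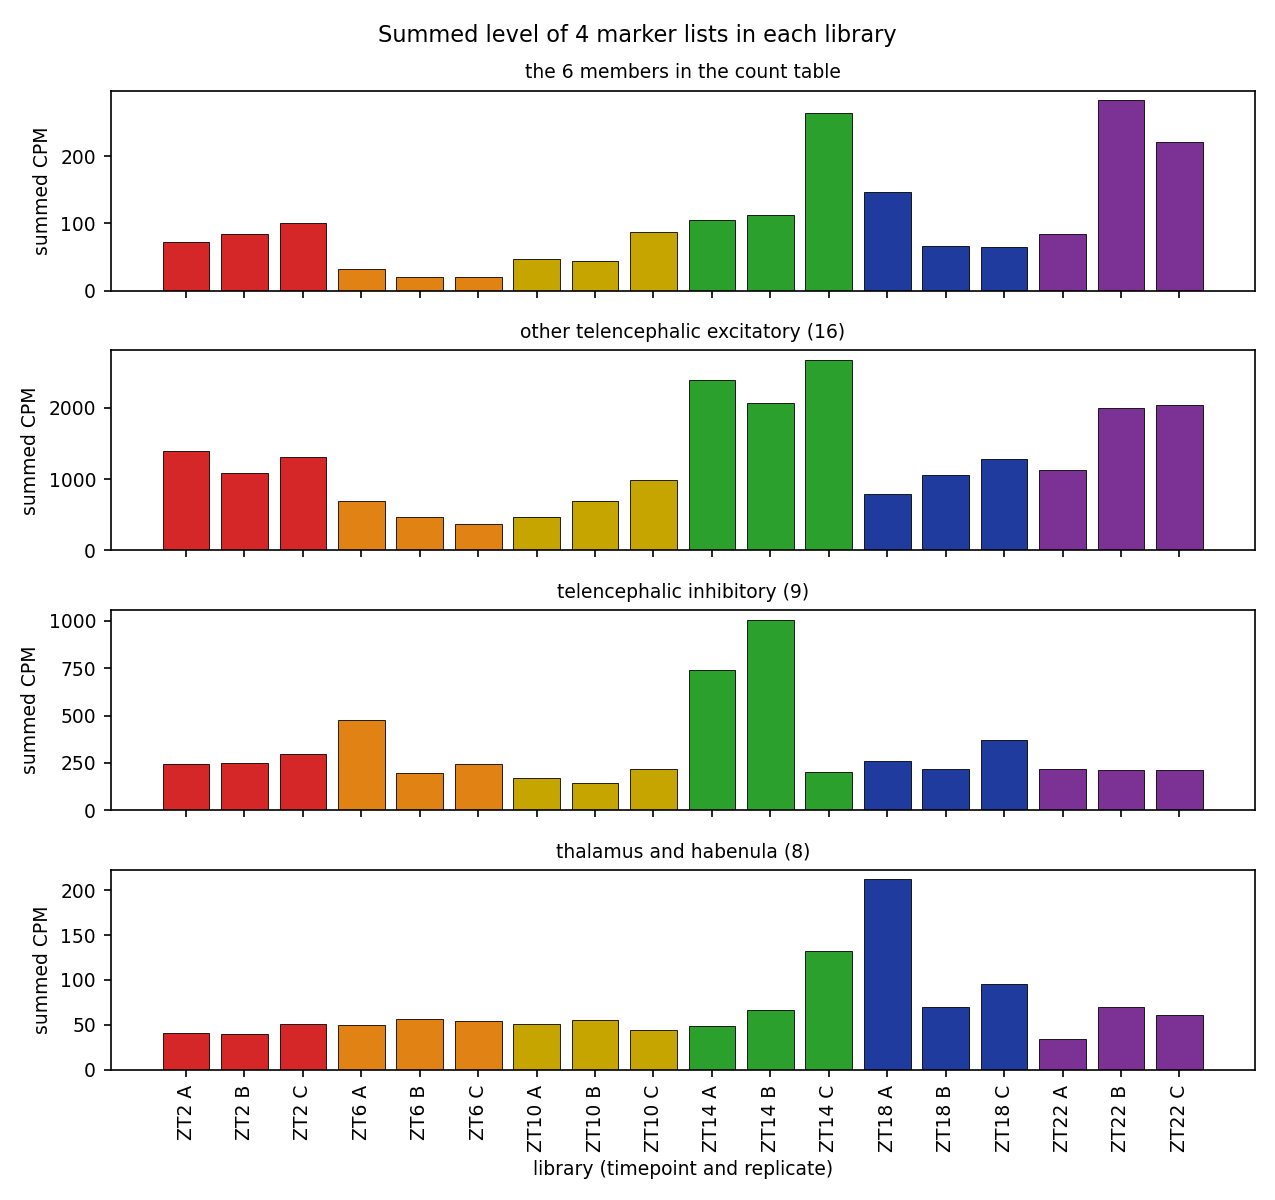
Summed CPM of the 6 members of the count table and of 3 marker lists in each library, on axes that start at 0. The members peak in ZT14 replicate C (264 CPM) and ZT22 replicate B (284 CPM), the inhibitory list in ZT14 replicate B (1007 CPM) and the thalamic list in ZT18 replicate A (212 CPM).

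Among the markers of the SCN's own neurons, 12 of the 15 GABAergic and SCN genes changed with time, where 44.0% of all tested genes did. In the joint contrast 12 of 15 were below 0, with a median of -0.21. *Slc32a1* averaged 102 ± 56.8 CPM at ZT6 and 24.6 ± 2.68 at ZT22 (edgeR adjusted p = 7.47e-05), *Gad2* 675 ± 46.3 at ZT6 and 312 ± 13.3 at ZT22 (0.000108), and *Gad1* did not pass (0.821). Of 7 genes of neurons in general 6 changed with time, and 2 of 7 passed in the joint contrast, with a median of 0.38. They were *Rbfox3* and *Syt1*, a synaptic calcium sensor named here after its values were seen. *Rbfox3*, which encodes the neuronal antigen NeuN, averaged 76.3 ± 15.5 CPM at ZT14 and 20.5 ± 3.64 at ZT2.

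The per-kilobase ratio of *Slc17a7* to *Slc32a1* sets the cortical glutamate transporter against the GABA transporter inside each library. It was between 0.622 and 1.84 at ZT14 and between 0.183 and 0.402 at ZT18, without overlap. At ZT22 it was 0.408, 1.69 and 1.28, and at ZT2 it was 0.423, 0.191 and 0.536. It was lowest at ZT6, between 0.0378 and 0.0709. The ratio of *Slc17a7* to *Slc17a6* was 1.24 to 4.31 at ZT14 and 0.0916 to 1.01 at ZT18, a log2 difference of 2.62 ± 1.19 (SE). It reached higher values at ZT6 (0.853, 2.37 and 13.6) and ZT10 (8.49, 4.10 and 2.13), and its mean was 0.891 ± 0.254 at ZT22 and 0.706 ± 0.403 at ZT2. Only the pair of ZT14 and ZT18 did not overlap in this ratio. In 9 two-sided exact permutation tests (3 ratios, 3 pairs) the smallest p was 0.10, or 0.30 after Benjamini-Hochberg adjustment, and 3 libraries against 3 cannot give less than 0.10.

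**Figure D5:**
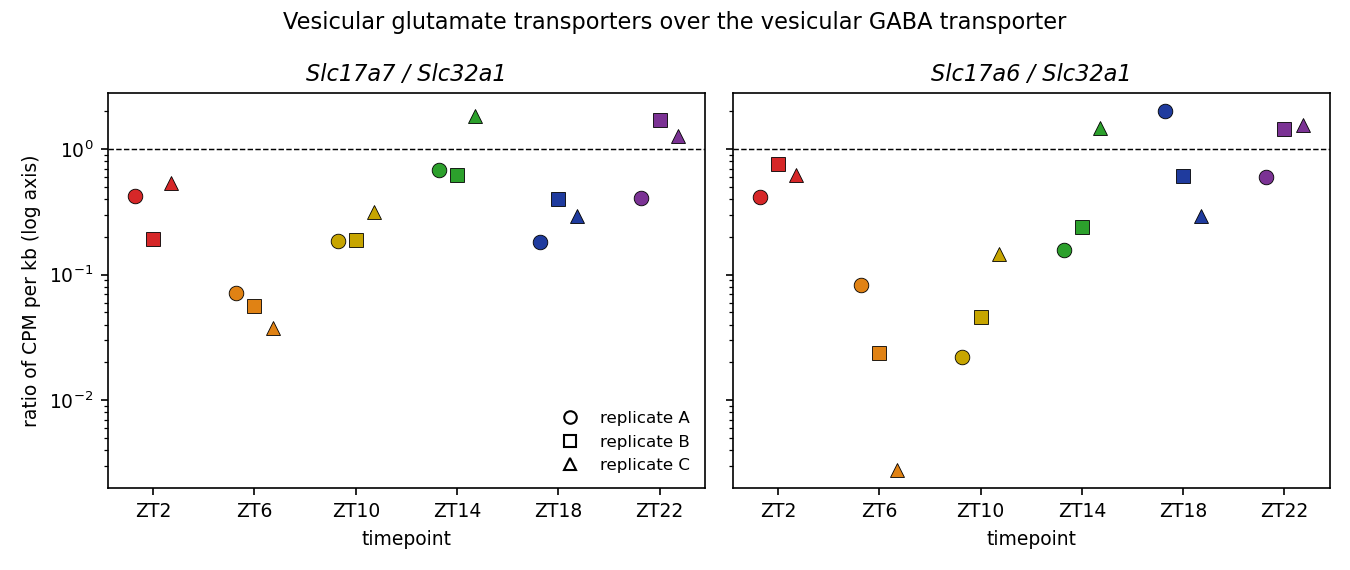
Ratio of each vesicular glutamate transporter to *Slc32a1* (CPM per kb, log axis) in each library, with the dashed line at 1. The *Slc17a7* ratio exceeds 1 only in ZT14 replicate C and ZT22 replicates B and C, and the *Slc17a6* ratio in those and in ZT18 replicate A.

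Of 9 genes that supply or remove glutamate in glia and neurons, 5 changed with time, where 44.0% of all tested genes did. None of the 9 passed in the joint contrast of ZT14 and ZT22 with ZT18 and ZT2, and the median there was 0.09. *Glul*, the glutamine synthetase of astrocytes, averaged 683 ± 128 CPM at ZT22 and 265 ± 20.3 at ZT6 (edgeR adjusted p = 2.89e-05). *Slc17a8*, the third vesicular glutamate transporter, was near the floor, between 0 and 4.32 CPM, and did not pass (0.358). Of 11 related transcription factors 4 were tested, none changed with time, and *Neurog3* had no read in any library.

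Among markers of other cells, 6 of 6 oligodendrocyte, 6 of 6 astrocyte, 6 of 7 microglial and 3 of 6 endothelial genes changed with time. The share of all tested genes that did was 44.0%. The medians of these lists in the joint contrast lay between -0.21 and 0.20, and none of their genes passed there. None of 6 ependymal and choroid plexus genes changed with time, and their sum ran from 3.65 to 3351 CPM between libraries, with 8.93, 219 and 1368 at ZT14 and 6.63, 264 and 213 at ZT22 (replicates A, B and C). Of 8 tested photoreceptor and pineal genes 1 (*Cdhr1*) changed with time.

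The genes whose log2 levels followed each member most closely over the 18 libraries are a description only, since libraries share timepoints. *Slc17a7* went with *Nptx1* (r = 0.89), *Wipf3* (0.88) and *Adcy1* (0.88), and *Slc17a6* with *Maob* (0.90), *L3mbtl2* (0.89) and *Casp9* (0.89). *Neurod6* went with *Rapgef5* (r = 0.93), *Ppp1r7* (0.92) and *Ociad2* (0.92). *Neurod2* went with *Slc30a3* (r = 0.85), itself on the list of telencephalic genes. *Tbr1* went with *Cabcoco1* (r = 0.87) and *Fezf2* with *Syn1* (0.80). Among the members, r was 0.77 for *Slc17a7* with *Tbr1*, 0.77 for *Slc17a6* with *Neurod6*, 0.74 for *Slc17a7* with *Neurod2* and -0.55 for *Slc17a6* with *Fezf2*. After the timepoint means were removed, *Slc17a7* with *Neurod2* had 0.70 and *Neurod6* with *Fezf2* 0.62. The closest genes then were *Schip1* (0.90) for *Slc17a7*, *Cxcl14* (0.89) for *Slc17a6*, *Tmem212* (0.94) for *Neurod6* and *Ralyl* (0.85) for *Neurod2*. *Tmem212* is on the list of ependymal and choroid plexus genes. It read 2.86, 19.7 and 11.1 CPM in ZT22 replicates A, B and C, where *Neurod6* read 22.6, 108 and 81.1. In ZT6 replicate B, by contrast, *Tmem212* read 9.71 CPM and *Neurod6* 2.13. The part of ependymal RNA in the *Neurod6* level was not tested.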

How the data were processed

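Reads from 54 lane samples were trimmed, aligned with GSNAP to mm10 (GRCm38) and counted on Ensembl genes with HTSeq 0.5.4p1 by the authors. They deposited whole-number read counts for 30031 genes, lanes combined into 18 libraries, and a second table of normalized signal (counts divided by DESeq2 size factors) for 31077 genes. All values of the second table were whole multiples of 1 step per column (100% within 0.001 read), so its reads were recovered as an alternative and for *Neurod1*. The number of sample columns that went unused was 0. About 1 ng of RNA per library had been amplified, so low reads are not independent molecules. A gene was tested (18941 genes, and 20822 in the second table) where over 6 libraries had 1 read or more. edgeR 4.0.16 in R 4.3.3 fitted the 18 libraries with TMM normalization, the quasi-likelihood test and Benjamini-Hochberg adjustment over all genes tested. JTK_CYCLE was written in Python 3.11.15. DESeq2 1.42.0, other normalizations and filters, the replicate letter as a block and leaving out each library were alternatives. The scripts were tested on simulated data.

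The members and gene lists were chosen with earlier results of these data known. All members are named. From each list up to 3 genes past the time test with separated extreme timepoints were eligible, plus 10 telencephalic, GABA and transporter genes in any case, and the genes named as most like a member were those with the highest Pearson r (log2 CPM, prior count 2). Symbols came from GENCODE M21, which named 97.2% of gene identifiers. Some genes of the lists are not reported here by name.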

Additional observations from a re-analysis of the deposited data

How the results depend on the processing

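The number of members that changed with time (4 of 6) was 5 with DESeq2, 4 with DESeq2 size factors, upper-quartile normalization, no filter or the reads of the normalized table, and 2 with a filter of at least 10 reads in every library. That filter removed *Neurod6*, *Neurod2* and *Tbr1*. DESeq2 moved the members called at ZT14 against ZT18 from 1 to 2, at ZT6 against ZT10 from 0 to 1, and in the joint contrast of ZT14 and ZT22 with ZT18 and ZT2 from 1 to 3. Leaving out each library gave between 4 and 5 members changed with time, 1 and 2 cycling, 0 and 1 at ZT14 against ZT18, 0 at ZT22 against ZT2, 0 at ZT6 against ZT10, and 0 and 1 in the joint contrast. The genes changing with time (8343) ranged from 7456 to 9129 in these fits.

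The replicate block (letters A, B and C) left the members changing with time at 4, gave 7847 for the genes changing with time, and turned only the joint contrast of *Slc17a6* (-0.024) and ZT22 against ZT2 of *Fezf2* (0.060), neither of which passed. Whether the letters pair the libraries was not settled. The correlation of deviations had a median of -0.003 for the same letter and -0.001 for other letters. Of the 18 libraries, 9 correlated best with their own letter, and the number to be met without pairing was not worked out. Without single libraries *Slc17a6* ran from -0.51 to 0.67 in the joint contrast, from -1.84 to 0.53 at ZT14 against ZT18 and from -1.79 to 0.56 at ZT6 against ZT10, and *Fezf2* from -0.24 to 0.24 at ZT22 against ZT2. The cause of these changes was not tested.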
